A study of Mus musculus with 36 samples.

Results

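The HoxB cluster is a run of 10 homeobox genes on mouse chromosome 11 (Hoxb13, Hoxb9, Hoxb8, Hoxb7, Hoxb6, Hoxb5, Hoxb4, Hoxb3, Hoxb2 and Hoxb1), all read from the plus strand. Its chromatin accessibility was examined in 36 ATAC-seq libraries, an assay in which a transposase cuts accessible DNA and tags it with adapters. Merging the peaks of the 36 libraries wherever they shared 1 bp or more gave 105005 regions, and the 20 regions whose centre lay nearest to the transcription start site (TSS) of a HoxB gene were taken as the regions of the cluster. Each region is named here by that gene and by the distance of its centre from the TSS, with a minus sign for upstream. The nearest gene is a matter of position and says nothing of which gene a region controls. A region counts as called in a library that has a peak within it.

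Hox genes encode transcription factors that bind DNA through a homeodomain, often together with partner homeodomain proteins of the TALE class, and their order along a cluster follows the order in which they are used along the body axis. In blood, Hoxb4 is known for expanding hematopoietic stem cells when overexpressed, Hoxb5 as a marker of long-term stem cells in the mouse, and Hoxb8 for blocking the differentiation of myeloid progenitors when overexpressed. Hoxb1, Hoxb2 and Hoxb3 are best known from the hindbrain, and Hoxb13 lies apart from the other genes and is best known from the prostate.

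The libraries came from bone marrow of female C57BL/6 mice with no other allele or agent named in the labels, young (10 weeks) or aged (20 months), each from 20000 sorted cells. Hematopoietic stem cells (HSCs) had 4 libraries per age. The other fractions had 2 libraries per age. They were the multipotent progenitors MPP1 to MPP4 and the progenitors of granulocytes and macrophages (GMPs), of megakaryocytes and erythrocytes (MEPs) and of lymphoid cells (CLPs). Per the study's methods, marrow was pooled and then sorted in duplicate, so libraries of the same age may come from the same pool, and the p-values given here measure only the spread between these libraries. In bulk samples such as these, fewer cells with an open site and a less open site in each cell cannot be told apart.

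The sorted fractions carried promoter peaks of some of their defining genes and lacked others. Mpo, Elane, Ctsg and Cebpe had a promoter peak in 4 of 4 GMP libraries and in at most 1 library of any other fraction, while Prtn3 had none anywhere. Of the HSC genes besides Hoxb5, Vwf had one in 4 of 8 HSC libraries and in no other fraction, Procr in 4 HSC, 2 MPP3 and 3 GMP libraries, and Hlf in 8 of 8 HSC libraries and in every other fraction. Mecom and Fgd5 had none in HSCs, while Mecom had one in 1 MPP2, 2 MPP3, 3 MPP4, 3 GMP and 2 CLP libraries and Fgd5 in 1 MPP1 library. Il7r, a lymphoid gene, had one in 4 of 4 libraries of CLPs, MPP4 and GMPs. The erythroid genes Klf1, Epor, Gata1 and Hba-a1 had none in any library, MEPs included, and the lymphoid genes Dntt and Cd79a had none, CLPs included. The peak lists also differed in ways that bear on every comparison with GMPs and MEPs. GMP lists held 52576 to 63288 peaks against 27856 to 38756 in HSCs and 9581 to 11041 in MEPs. The smallest peak was 132 to 139 bp wide in GMPs and 163 to 191 bp elsewhere, and whether the peak caller was run with the same fragment length for all libraries is not given in the sources used here. At the 5335 regions called in all 36 libraries, the median fold enrichment over the local background was 18.5 to 20.3 in GMPs, 11.6 to 13.8 in HSCs and 7.52 to 7.77 in MEPs. The part of these differences in the results for the cluster was not tested, apart from the alternatives given beside the results. The lists hold no read counts, so no interval from counts can be given for a single fold enrichment.

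The sequences around the median summit, which is the position of strongest signal, are shown for 3 regions on which the results turn (plus strand, GRCm38, 5′ to 3′), and capitals mark 21 bases around that summit. They are an intronic region of Hoxb6 that had calls in GMPs and MPPs and none in HSCs, the region just upstream of Hoxb4 that was called in GMPs alone, and the intergenic region downstream of Hoxb1.
Hoxb6 +2.16 kb, chr11:96294579-96294699: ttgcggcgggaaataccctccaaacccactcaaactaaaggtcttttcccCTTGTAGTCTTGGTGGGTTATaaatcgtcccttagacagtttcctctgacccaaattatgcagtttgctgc
Hoxb4 -0.469 kb, chr11:96317753-96317873: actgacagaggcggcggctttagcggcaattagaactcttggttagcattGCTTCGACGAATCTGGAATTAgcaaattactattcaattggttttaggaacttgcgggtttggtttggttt
Hoxb1 +34.3 kb, chr11:96400091-96400211: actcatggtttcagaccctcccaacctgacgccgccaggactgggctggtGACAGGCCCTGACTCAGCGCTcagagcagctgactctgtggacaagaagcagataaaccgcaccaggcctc

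In the lists as deposited, few HoxB regions were called in any fraction except GMPs. The 20 regions were called 87 times in all, and the median region was called in 2 of the 36 libraries, against 5 for the whole catalogue. No region was called in all libraries, and 8 of the 20 were called in a single library, against 18.4% of all regions. Hoxb7 and Hoxb13 had no region. HSC libraries had 1.75 ± 0.707 HoxB regions each (SD, n = 8), MPP1 2.00 ± 1.41, MPP2 2.75 ± 0.957, MPP3 2.5 ± 1.29 and MPP4 1.25 ± 0.957 (SD, n = 4 each). GMP libraries had 9.0 ± 3.46 (SD, n = 4), with 4 and 12 in the young libraries and 10 in each aged library. CLP libraries had 0.750 ± 0.50 (SD, n = 4), all at the Hoxb4 -6.42 kb region. MEP libraries had none. These counts depend on the list: with the same number of peaks per library, GMP libraries had 0.25 HoxB regions each and HSC libraries 0, and with only peaks of a -log10 q of at least 10, 5.75 and 0.25.

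**Figure D1:**
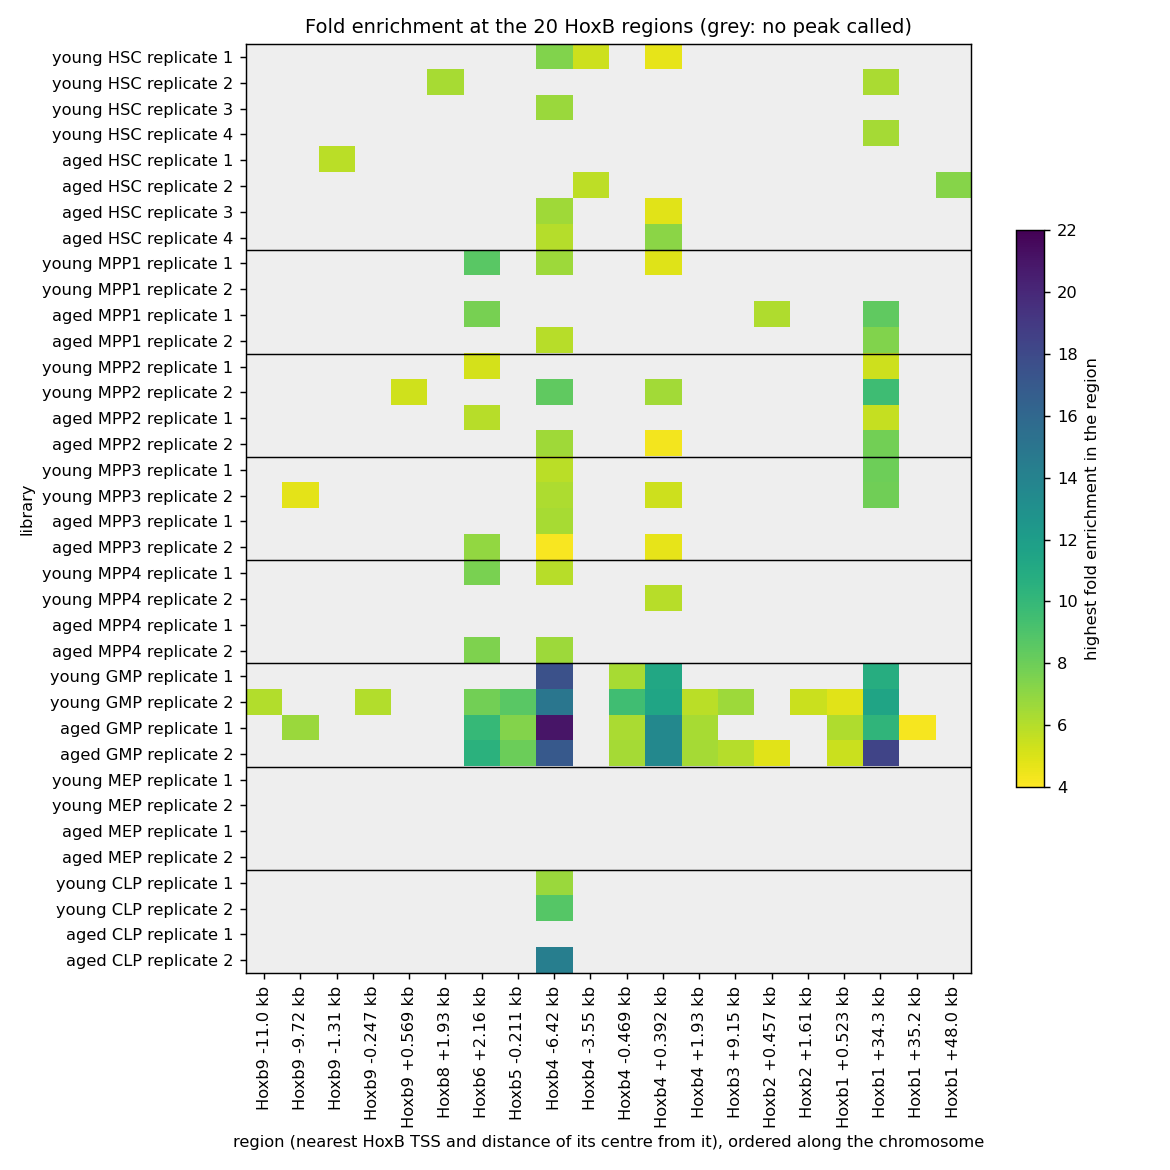
Highest fold enrichment (colour scale, ratio over local background) in each of the 20 HoxB regions (columns, in chromosome order) and each of the 36 libraries (rows); grey cells have no peak. The 4 GMP rows hold 36 of the 87 calls, and the 4 MEP rows hold none.

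Relative to all calls of a fraction, GMPs had 1.56 HoxB calls per 10000, MPP2 0.850, MPP3 0.803, MPP1 0.574, HSCs 0.565, MPP4 0.376 and CLPs 0.246. MEPs had 0 of 39275 calls, which allows up to 0.764 per 10000 and covers counting error only, so a share as high as that of HSCs would not be detectable at that number of calls. The mean share of HoxB regions called per library was under that of the catalogue in every fraction. It was 45.0% in GMPs against 54.8% for all regions, and 8.75% in HSCs against 29.5%. Counted as regions called in at least 1 library, 15 of the 20 were called in GMPs, beside 69.8% of the catalogue, and 7 in HSCs, beside 49.2%.

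**Figure D2:**
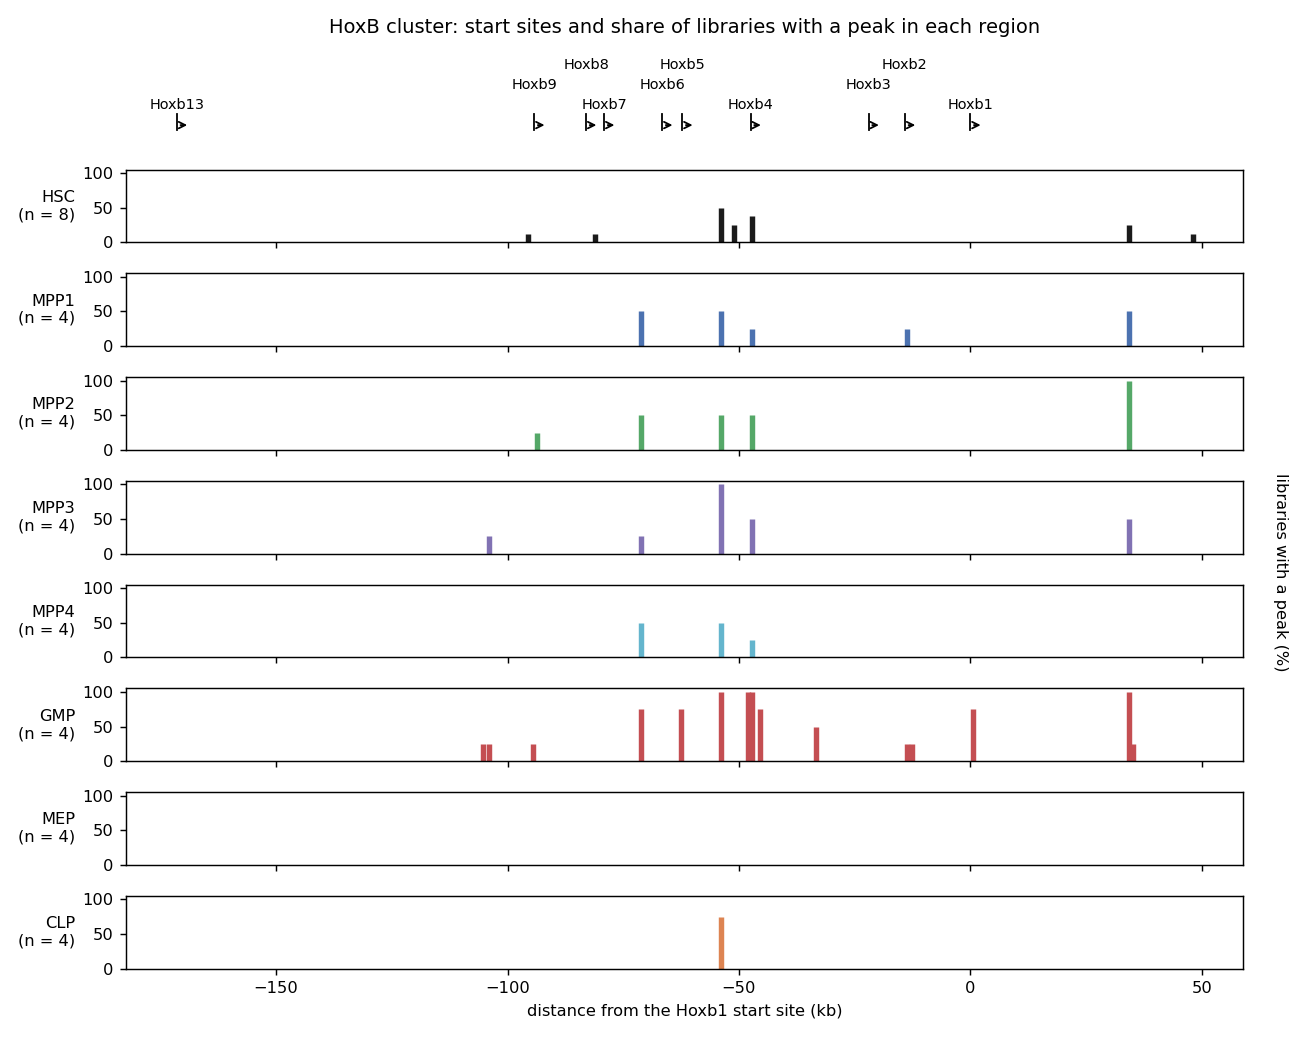
Share of libraries with a peak (vertical axis, %) in each HoxB region by distance from the Hoxb1 start site (horizontal axis, kb), with 1 panel per fraction (n = libraries of both ages) and arrows at the start sites. Lines in the GMP panel spread over the cluster from Hoxb9 to beyond Hoxb1, the CLP panel has 1 line upstream of Hoxb4, and the MEP panel is empty.

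By the window used here, promoters of the HoxB genes were called in GMPs and in no other fraction. A promoter was taken as the window that starts 1000 bp before a TSS and ends 100 bp after it. The Hoxb4 +0.392 kb region, over the 5′ part of the Hoxb4 transcript, starts just past this window. It was called in 13 libraries, with 3 HSC libraries and some of each MPP fraction among them, and is not counted as a promoter. By this window 3 of 10 HoxB genes had a called promoter in any library and none in an HSC library, while 65.2% of 21840 protein-coding genes had one in any library 59.8% in an HSC library and 60.3% in a GMP library. All 3 HoxB promoters were called in GMPs alone, as were 370 (2.60%) of the 14242 promoters called in any library, and these shares have no test. The Hoxb4 -0.469 kb region (chr11:96317668-96317928, intergenic) was called in all 4 GMP libraries, at a fold enrichment of 6.39 and 9.52 in the young and 6.27 and 6.41 in the aged ones. The Hoxb5 -0.211 kb region (chr11:96303189-96303412, in an intron of the antisense gene Hoxb5os) was called in 3 GMP libraries, at 8.59 in young replicate 2 and 7.34 and 8.02 in the aged ones. The Hoxb9 -0.247 kb region (chr11:96271109-96271310, intergenic) was called in young GMP replicate 2 alone, at 6.05. None of the 3 promoter regions was called in the 8 HSC libraries, so at the deposited limit the promoter of the stem-cell marker Hoxb5 had no peak in the HSC fraction.

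Calls were compared across the 8 fractions with an exact Freeman-Halton test per region, adjusted after Benjamini and Hochberg over the whole catalogue, and 5 of the 20 HoxB regions passed, where 51.9% of 99670 regions passed. The lowest adjusted p was 5.22e-04, at Hoxb4 -0.469 kb. Hoxb5 -0.211 kb, Hoxb4 +1.93 kb and Hoxb1 +0.523 kb each had an adjusted p of 0.00891 in this exact test, and Hoxb1 +34.3 kb had 0.00221. With only peaks of a -log10 q of at least 10, the adjusted p of this exact test was 0.102 at Hoxb5 -0.211 kb and Hoxb4 +1.93 kb, and Hoxb1 +0.523 kb had no call left. All of these 5 regions but Hoxb1 +34.3 kb were called in GMPs alone, as were 25.2% of all regions that passed. GMP peaks alone brought those HoxB regions into the catalogue, so their passing this test is no separate support for a difference of GMPs. Over all regions, called in any number of libraries, 9 of the 20 in the cluster and 24.1% of the catalogue were called in GMPs alone. Hoxb4 +1.93 kb (chr11:96320112-96320289), in the coding part of Hoxb4, had a fold enrichment of 5.84, 6.38 and 6.42 in 3 GMP libraries, and Hoxb1 +0.523 kb (chr11:96366177-96366374), in the coding part of Hoxb1, had 4.84, 6.12 and 5.41 in the same 3. The GMP library without a call at these 2 regions and at Hoxb5 was young replicate 1, which had the shortest peak list of the 4.

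In a two-sided Fisher's exact test against the 8 HSC libraries, 5 of 19 HoxB regions were called more often in GMPs (Hoxb6 +2.16 kb, Hoxb5 -0.211 kb, Hoxb4 -0.469 kb, Hoxb4 +1.93 kb and Hoxb1 +0.523 kb), and 34% of 77752 regions tested were. The adjusted p was 0.00765 at Hoxb4 -0.469 kb and 0.0475 at the other 4, by the exact test. All but Hoxb6 +2.16 kb had calls in GMPs alone, so that GMP peaks were what brought them into the catalogue. The regions at 0.0475 sit close to the threshold: the count fell to 1 or 2 when any HSC library was left out, and to 1 without young GMP replicate 2 or either aged GMP replicate. When each library was reduced to its 9581 strongest peaks, HoxB calls fell to 2, both at Hoxb4 -6.42 kb (1 in a GMP and 1 in a CLP library), and no HoxB region passed either test.

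Between HSCs and the fractions other than GMPs, no HoxB region passed a test. The HSC libraries are common to these comparisons. By Fisher's exact test 0 HoxB regions passed against MPP1, MPP2 and MPP3 (9 tested each; 0% of the catalogue passed in each), 0 of 8 against MPP4 (5.73% of the catalogue), 0 of 7 against MEPs (24.5%) and 0 of 7 against CLPs (12.4%), and none of these had an unadjusted p under 0.05. Their lowest adjusted p by this exact test was 0.358, against MPP4. A region with calls in only 1 or 2 libraries of a comparison could not reach an unadjusted p under 0.05 in this exact test. For such regions it says nothing of a difference between the fractions. By an exact permutation test on the rank of the fold enrichment, with libraries without a call ranked lowest, 0 HoxB regions passed against the same fractions, with 1 unadjusted p under 0.05 (0.0485, against MPP2) and a lowest adjusted p of 0.313. This rank test, which was added after the data were seen, passed 0% of the catalogue against MPP1, MPP2 and MPP3, 10.2% against MPP4, 28.6% against MEPs and 18.1% against CLPs.

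Against GMPs the rank test passed 8 of 19 HoxB regions, all higher in GMPs, where 46.1% of 91636 regions passed in that direction. They were the 5 regions above with Hoxb4 -6.42 kb, Hoxb4 +0.392 kb and Hoxb1 +34.3 kb, which had calls on both sides. The same 8 passed when each fold enrichment was divided by the library's median at the regions called in all libraries, 4 passed without young GMP replicate 2 or without either aged GMP replicate, and none passed with the same number of peaks per library.

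The 4 regions called most often were chosen for a closer description after their values were seen. Hoxb4 -6.42 kb (chr11:96311501-96312190), 690 bp wide and intergenic between Hoxb5 and Hoxb4, was called in 21 libraries. Its fold enrichment was 17.5 and 14.9 in young GMPs and 21 and 17 in aged GMPs. In HSCs it was called in 2 young libraries, at 7.42 and 6.71, and in 2 aged ones, at 6.57 and 5.99, so the GMP values lay above all HSC values (adjusted p = 0.0101, exact rank permutation test). The region holds more than 1 summit position, and the values of GMPs and HSCs come largely from different ones. In CLPs it was 6.72 and 8.74 in the young libraries, 14.3 in aged replicate 2 and uncalled in aged replicate 1. In MPPs it ranged from 4.16 to 8.39 over 10 of 16 libraries, with all 4 MPP3 libraries among them.

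Hoxb4 +0.392 kb (chr11:96318443-96318874), over the 5′ part of the Hoxb4 transcript, was called in 13 libraries. GMPs had 11.2 and 11.4 in the young and 13.6 in each aged library. The 3 HSC calls were 4.66 in a young library and 4.81 and 7.16 in aged ones, all under the GMP values (adjusted p = 0.00823, exact rank permutation test). Here too the summits differed in position. They lay 342 to 351 bp downstream of the TSS in GMPs, and at 484 bp in the young and 277 and 279 bp in the aged HSC libraries. The part of summit position in this difference was not tested. The 6 MPP calls ranged from 4.33 to 6.50, and CLPs had none.

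Hoxb6 +2.16 kb (chr11:96294454-96294816) lies in an intron of Hoxb6 and of the antisense gene Hoxb5os and was called in 10 libraries. It had no call in the 8 HSC libraries. Fold enrichment in GMPs was 7.86 in young replicate 2 and 9.93 and 10.5 in the aged libraries. In MPPs 7 libraries had a call, from 5.18 to 8.64, with each of MPP1, MPP2, MPP3 and MPP4 among them, so the GMP and MPP values overlapped. The difference from HSCs passed for GMPs (adjusted p = 0.0475, Fisher's exact test). The region had only 1 or 2 calls in each MPP fraction, too few for this test to pass against HSCs.

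Hoxb1 +34.3 kb (chr11:96399882-96400309), intergenic at the far end from Hoxb9, was called in 14 libraries. GMPs had 10.8 and 11.5 in the young and 10.2 and 18.3 in the aged libraries. All 4 MPP2 libraries had a call, at 5.37 and 9.60 in young and 5.61 and 7.84 in aged cells. In HSCs the region was called in 2 young libraries, at 6.29 and 6.42, and in no aged one. In MPP1 it was called in both aged libraries (8.36 and 7.39) and in MPP3 in both young ones (7.96 and 7.92). MPP4, MEPs and CLPs had no call.

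**Figure D3:**
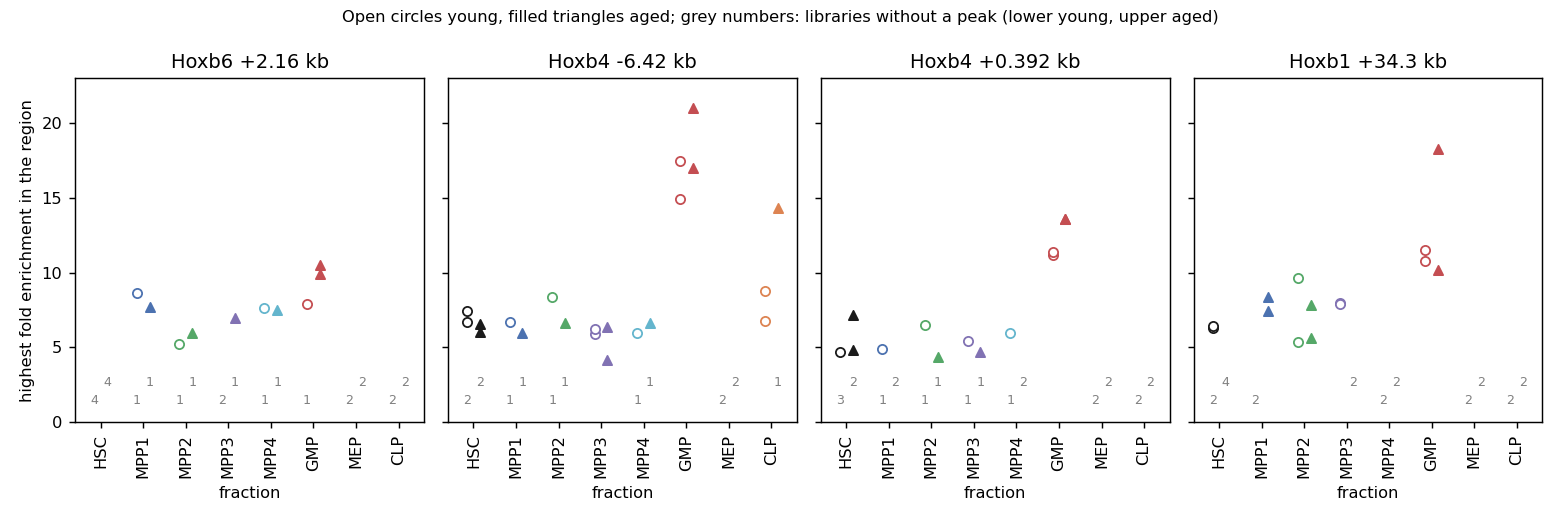
Highest fold enrichment (vertical axis, ratio over local background) by fraction in the 4 HoxB regions called most often, 1 symbol per library with a peak; grey numbers count libraries without one. GMP values lie above all HSC values in the 3 panels with HSC peaks, and a CLP library reaches 14.3 at Hoxb4 -6.42 kb.

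Within Hoxb4 -6.42 kb the summits of different fractions did not fall in the same place. The 7 GMP and CLP summits lay at chr11:96311615-96311696, with a median of 96311658. The 14 HSC and MPP summits had a median of 96311854, 196 bp nearer to Hoxb4, and 13 of them lay above all GMP and CLP summits. The exception was aged MPP3 replicate 2, at 96311657, with the lowest fold enrichment of the region, 4.16. A peak covered the GMP and CLP median in no HSC or MPP1 library, in 1 MPP2, 3 MPP3 and 1 MPP4 library, in 4 GMP and in 3 CLP libraries. The HSC and MPP median was covered in 4 of 8 HSC libraries, in 2 MPP1, 2 MPP2, 4 MPP3 and 2 MPP4 libraries, and in 1 GMP and 1 CLP library.

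Medians of the same 2 sets of libraries lay at least as far apart in 3.15% of 25456 regions with 5 or more summits on each side, and in 7.98% of the 9038 regions at least as wide. The comparison was made because the pattern was noticed in the data, and it has no test. The smallest peaks of CLP libraries were 170 to 183 bp wide, within the range of HSCs and MPPs, and those of GMP libraries 132 to 139 bp. The part of peak width in the position of the summits was not tested.

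**Figure D4:**
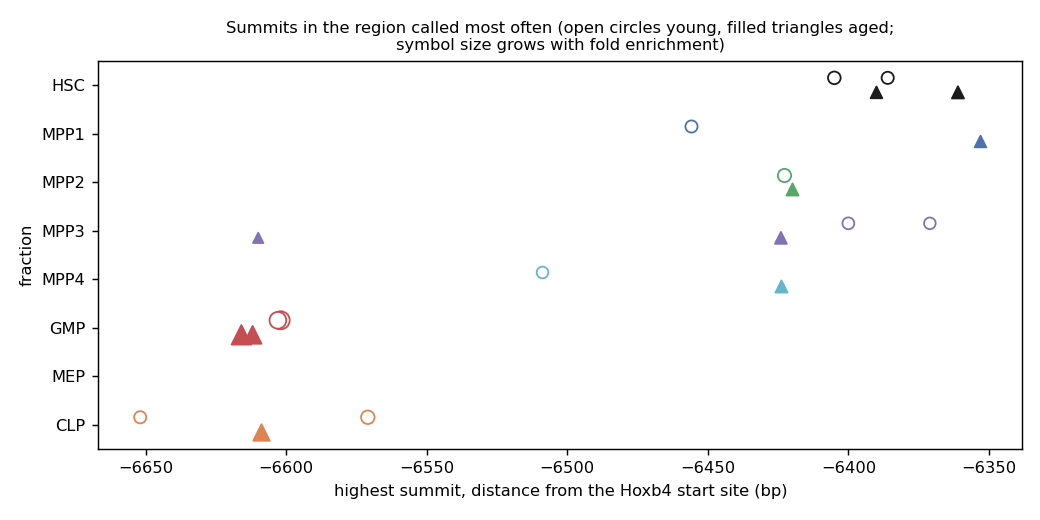
Position of the highest summit in the Hoxb4 -6.42 kb region (horizontal axis, bp from the Hoxb4 start site) in the 21 libraries with a peak, by fraction (vertical axis); symbol size grows with fold enrichment. GMP and CLP summits form 1 group on the left, and 13 of the 14 HSC and MPP summits lie to their right.

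The remaining regions were called in 1 or 2 libraries each. Hoxb4 -3.55 kb (chr11:96314596-96314831, intergenic) was called in 1 young and 1 aged HSC library, at 5.38 and 5.80, and nowhere else. Calls in a single HSC library were Hoxb9 -1.31 kb (aged, 5.89), Hoxb8 +1.93 kb (young, 6.37) and Hoxb1 +48.0 kb (aged, 7.30). Hoxb3 +9.15 kb, in an intron of Hoxb3, was called in 2 GMP libraries at 6.65 and 6.01. Hoxb9 -11.0 kb, Hoxb2 +1.61 kb and Hoxb1 +35.2 kb were called in 1 GMP library each, between 4.22 and 6.05. Hoxb9 -9.72 kb was called in a young MPP3 and an aged GMP library, Hoxb2 +0.457 kb in an aged MPP1 and an aged GMP library, and Hoxb9 +0.569 kb in a young MPP2 library, all between 4.75 and 6.73.

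The cluster had similar numbers of calls in young and aged libraries. Young libraries had 43 HoxB calls in 16 regions and aged libraries 44 in 15, and HSCs of each age had 7. An exact conditional test with fraction as stratum passed 0 of 19 HoxB regions and 0% of 85292 regions, with 0 HoxB regions and 1169 of all regions at an unadjusted p under 0.05. The HoxB regions called in only 1 or 2 libraries could not pass this test, nor could those called in 3 of the 4 GMP libraries and nowhere else. For these regions the test says nothing of a difference with age. Of the regions tested, only Hoxb6 +2.16 kb, Hoxb4 -6.42 kb, Hoxb4 +0.392 kb and Hoxb1 +34.3 kb could reach an unadjusted p under 0.05. Since 0% of the catalogue passed after adjustment, no conclusion on age is drawn for them either. Within HSCs, Fisher's exact test passed 0 of 7 HoxB regions and 0% of 34285 regions, with 0 and 365 at an unadjusted p under 0.05. The smallest p that 4 against 4 HSC libraries can reach in this exact test is 0.0286, so after adjustment over the catalogue this test could pass a region only if most regions were at that limit, and its count of 0 says nothing of whether HSCs differed with age. The lowest unadjusted p for a HoxB region was 0.429 in HSCs and 0.5 over all fractions, by the exact tests. The planned model of fold enrichment between young and aged HSCs could not be fitted for HoxB, because no HoxB region was called in all 8 HSC libraries, and no such model was run within other fractions.

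HoxB regions had a higher median GC content than the catalogue, and the motifs searched were in few of them, as in the catalogue. Their median GC content was 56.3% against 49.4% for all regions, and their median observed over expected CpG was 0.689 against 0.254. Within 100 bp of the median summit, on both strands, the HOX-PBX motif tgattnat was in 1 of 20 HoxB regions (Hoxb9 -0.247 kb; 2.63% of 104825 regions) and the HOX motif tttatng in 1 (Hoxb9 +0.569 kb; 6.98%). The GATA motif agataa was in 1 (Hoxb1 +34.3 kb, in the sequence shown; 10.3%), the RUNX motif tgtggt in 4 (25.7%) and the E-box cagctg in 3, among them Hoxb1 +34.3 kb (14.6%). The ETS motif ccggaagt, the CTCF motif (ccacnagg followed by nggc) and direct repeats of ngntca at 2 and 5 bases, as bound by retinoic acid receptors, were in none, with 1.24%, 1.09%, 0.625% and 0.521% of all regions.

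Neighbouring genes and the other Hox clusters are given for comparison, by counts and with no test between lists. Across fractions, 6 of 17 regions of the flanking genes passed the exact test, 7 of 18 of HoxA, 4 of 11 of HoxC and 5 of 16 of HoxD, beside 5 of 20 of HoxB and the 51.9% of the catalogue. In Fisher's exact test of GMPs against HSCs, 4 of 17 HoxA, 4 of 11 HoxC, 2 of 13 HoxD and 1 of 15 flanking regions passed with more calls in GMPs, beside 5 of 19 for HoxB and 34% of the catalogue, and 1 flanking region passed with fewer. A promoter was called in some library in 9 of 11 HoxA, 3 of 9 HoxC (in GMPs alone, as for HoxB) and 5 of 9 HoxD genes and in 2 flanking genes, beside 3 of 10 HoxB genes and 65.2% of all protein-coding genes. Hoxa5, the HoxA gene of the same paralogue group as Hoxb5, was called at its promoter in 8 of 8 HSC libraries. The share of regions called per HSC library was 22.9% in HoxA, 23.4% in HoxD, 5.68% in HoxC and 8.75% in HoxB. Of known regulators of Hox genes (Cdx, Kmt2a, Men1, Dot1l, retinoic acid receptors and Cyp26b1), 47 of 87 regions passed. No region of these lists passed the age test.

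The genes whose share of called regions was most like that of HoxB over the 16 groups of age and fraction were Pecam1 (Pearson r = 0.988 over 16 groups), Gorasp2 (0.982), Erbin (0.981), Pgpep1l (0.979) and Foxk1 (0.979). The groups share the difference in list length between GMPs, MEPs and the rest, the median r over 7320 genes was 0.751, and 1174 genes had an r of at least 0.9.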

How the data were processed

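The authors aligned 60-bp single reads of fragments selected at 240 to 360 bp to mm10 with Bowtie2, subsampled mapped reads to the same number per library with SAMtools, and called peaks per library with MACS2 2.2.6 without its fragment model at a q-value limit of 0.001. Each deposited summit carries a score, a fold enrichment (a ratio over local background), a -log10 p-value and a -log10 q-value, with no read counts, so total depth per library is not given in the sources used here and precision rests on the number of libraries.

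From these lists, entries with the same interval were counted as 1 peak (1204561 of 1358077), peaks overlapping by 1 bp were merged, and the highest fold enrichment per library was kept. TSSs came from GENCODE release 21 (basic, protein-coding, GRCm38, the assembly of mm10), and sequence from RefSeq's GRCm38. Tests were two-sided and exact (Python 3.11.15, scipy 1.17.1), adjusted after Benjamini and Hochberg over the catalogue with a threshold of 0.05, and were tested on simulated data. The planned limma models of fold enrichment, all of which included the 8 HSC libraries, could not be fitted for HoxB, since no HoxB region was called in every library they needed. Regions named by rule were those at a HoxB promoter, called in all libraries, or passing the fraction or age tests; the regions called most often were added after their values were seen. The members and lists were chosen with earlier results of these data known. Alternatives were stricter peaks, 50% coverage, equal list lengths, other merging, replicate strata and leaving out each library. Some genes and sequences are not reported here.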

Additional observations from a re-analysis of the deposited data

Results flagged for a closer look

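The number of HoxB regions called was 1 in aged HSC replicate 1 and 2 in each of the other 3 aged HSC libraries, which put that library apart from its group. Chance alone can set a library apart, and 2 groups of 4 were checked here. The counts are small whole numbers, and with equal counts in the other libraries a difference of 1 region was enough for the flag.

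The Hoxb1 +34.3 kb region was called in all aged and no young libraries of MPP1, and in all young and no aged libraries of MPP3, with 2 libraries per age in each fraction. The difference between these fractions was not tested.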

How the results depend on the processing

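The count of HoxB regions that differed across fractions stayed at 5 with stricter peaks (-log10 q of at least 10) and with 50% coverage, and ranged from 5 to 7 when single libraries were left out. With stricter peaks only 2 of the 5 were the same: Hoxb4 -0.469 kb and Hoxb1 +34.3 kb were joined by Hoxb6 +2.16 kb, Hoxb4 -6.42 kb and Hoxb4 +0.392 kb. With the same number of peaks per library, 0 regions passed across fractions and 0 against HSCs. The count against HSCs, 5 in the main test, was 2 with 50% coverage and 1 to 5 when single libraries were left out. The added rank test gave 4 to 8 regions over left-out libraries and 0 with equal list lengths. The cluster held 7 regions when peaks under a -log10 q of 10 were left out before merging, and 20 when regions were assigned by their nearest edge. Both age tests gave 0 regions under every alternative run, those with replicate numbers as strata (replicate block, 0 regions, lowest p 0.5) and left-out libraries (0 to 0) included. In HSCs, where the ages share 4 numbers, the correlation of same-numbered libraries was between -0.0976 and 0.125, so the numbers were not taken to pair the samples. It was 0.241 in GMPs, 0.167 in MPP3, 0.117 in MPP1 and between 0.0140 and 0.0619 in the other fractions, each with 2 numbers. The HSC libraries held 0.25 HoxB regions each with stricter peaks and 0.875 with 50% coverage, against 1.75, and GMP libraries 5.75 and 8.0, against 9.0. The planned models of fold enrichment and their alternatives were not run, for want of a HoxB region called in all libraries they needed. List length limits what MEP libraries can show.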
